A study of Mus musculus with 18 samples.

Results

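The genes described here are 10 inflammatory mediators of glia, namely the cytokines Il1a, Il1b and Tnf, the CC chemokines Ccl2, Ccl3, Ccl4, Ccl6 and Ccl9, the CXC chemokine Cxcl16, and the NF-kB inhibitor Nfkbia. They were taken by name from the transcript count table of total RNA, where 20 transcripts carry these names, and the counts of transcripts with the same name were summed, so that 10 of 35960 genes are treated. The RNA came from the brains of 10-month-old mice, either wild type (WT) or homozygous for Atxn2-CAG100-KIN, a knock-in that places an expanded CAG repeat into the mouse Atxn2 gene and serves as a model of spinocerebellar ataxia type 2. No treatment was given. Brains were dissociated with enzymes and passed sequentially over magnetic beads, which gave a CD11b-selected microglial fraction, an ACSA-2-selected astroglial fraction and a neuronal fraction left after depletion of other cells. Each of the 3 fractions and 2 genotypes has 3 libraries, 18 in all, and the mutant animals carry the repeat in every cell type. The mice were 3 pairs of WT and KIN littermates, each pair of 1 sex (2 male pairs and 1 female pair), and the labels tie no replicate number to a pair or a sex. Fractions were taken one after another from the same brain, so libraries of different fractions can share a mouse, and the labels do not say which do.

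IL-1 alpha, IL-1 beta and TNF are cytokines through which microglia signal to neighbouring astrocytes, neurons and vessels, and the chemokines attract leukocytes and microglial processes through G protein-coupled receptors. Many of these genes are induced by NF-kB, a dimeric transcription factor that is held in the cytoplasm by the inhibitor encoded by Nfkbia, which is itself an NF-kB target and so forms a feedback loop. In healthy brain these transcripts are scarce, and enzymatic dissociation at warm temperature is known to raise several of them in microglia.

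The members lie on 4 chromosomes of the mm39 (GRCm39) assembly. Il1a (chr2:129140291-129152098) and Il1b (chr2:129206490-129213059) are neighbours on the minus strand, Tnf lies at chr17:35418357-35420983 and Nfkbia at chr12:55535332-55539432, both on the minus strand. The 6 chemokine genes are on chromosome 11. Ccl2 is at chr11:81926397-81928279 on the plus strand, Ccl9 (chr11:83463745-83473161), Ccl6 (chr11:83478708-83483913) and Ccl3 (chr11:83538670-83540191) are on the minus strand, Ccl4 is at chr11:83553383-83555509 on the plus strand, and Cxcl16 is at chr11:70344517-70352620 on the minus strand. The counting did not use strand, and 7 of the 10 members overlap a gene on the opposite strand in GENCODE, among them the long noncoding RNA Il1bos for Il1b and the protein-coding genes Med11 and Zmynd15 for Cxcl16.

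Promoter sequence from RefSeq (GRCm38.p6 assembly, 250 bases before to 50 bases after each gene start) was at hand for 7 members, and Ccl2, Ccl4 and Cxcl16 had no entry. The NF-kB consensus, a motif of 10 letters searched on both strands, was present in 2 of these 7 windows, Nfkbia and Ccl9, and in 8.46% of all 32851 promoter windows. Of the called members described below, Il1b is the one with an entry, and its window held no match. The 250 bases before the start of these 3 genes, all on the minus strand, are shown 5′ to 3′ so that the match can be seen in its setting, with the matching letters in capitals. The match of Nfkbia begins 29 bases, and that of Ccl9 35 bases, before the gene start. A match describes letters and was not tested as a binding site.
Nfkbia, chr12:55492648-55492897: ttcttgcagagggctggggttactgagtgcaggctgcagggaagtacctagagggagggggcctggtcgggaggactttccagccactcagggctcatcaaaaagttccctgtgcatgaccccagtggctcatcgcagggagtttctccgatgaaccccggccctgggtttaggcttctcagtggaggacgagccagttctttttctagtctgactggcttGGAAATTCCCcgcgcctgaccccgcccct
Ccl9, chr11:83578637-83578886: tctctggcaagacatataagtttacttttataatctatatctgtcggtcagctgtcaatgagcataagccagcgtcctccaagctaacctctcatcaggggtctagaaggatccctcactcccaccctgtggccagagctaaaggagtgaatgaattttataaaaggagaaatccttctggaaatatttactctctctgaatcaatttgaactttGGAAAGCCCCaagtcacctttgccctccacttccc
Il1b, chr2:129371140-129371389: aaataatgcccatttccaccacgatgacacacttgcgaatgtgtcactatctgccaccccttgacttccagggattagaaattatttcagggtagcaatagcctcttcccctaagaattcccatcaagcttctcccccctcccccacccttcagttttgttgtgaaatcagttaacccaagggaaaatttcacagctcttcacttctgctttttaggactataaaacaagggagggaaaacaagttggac

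Depth and purity were as follows. Libraries held 2334633 to 3296398 counts in WT microglia and 2511565 to 2931018 in KIN microglia, 2118317 to 2829969 in astrocytes, 761481 to 1017972 in WT neurons and 1473194 to 2017932 in KIN neurons, and the 10 most abundant transcripts took 75.8% to 85.4% of them. Levels are given in CPM, counts relative to the TMM-scaled library size, and a count of 0 allows a level of up to 3 counts, which is 0.863 to 1.53 CPM in astrocytes, 0.890 to 1.48 CPM in microglia and 1.92 to 3.99 CPM in neurons. These limits cover counting error alone. The microglial label held up against its markers, since the summed level of 11 microglial markers was 798 to 1214 CPM in the 6 microglial libraries and at most 22.2 CPM in the 12 others, where Tmem119 was at 0 in 10 libraries. Between genotypes the mean was higher in KIN microglia for 4 of the 11 markers and lower for 7. C1qa lay higher without overlap (260 to 327 CPM in WT, 421 to 453 CPM in KIN). P2ry12 (22.6 to 41.1 and 15.5 to 19.7 CPM) and P2ry13 (18.6 to 27.7 and 9.74 to 12.9 CPM) lay lower without overlap. WT microglia replicate 2 stood apart from the other 2 WT libraries, with a TMM factor of 0.613 and microglial markers at 1214 CPM against 824 and 798 CPM. Results on microglia are therefore also given without it. Differences in counts from the other 2 libraries of the group (chi-square per degree of freedom) were 16.4 and 19.4 for KIN microglia replicate 1, against 2.12 between those 2. They were 18.5 and 17.6 for WT neurons replicate 2, against 1.91, and that library held oligodendrocyte-lineage markers at 259 CPM against 24.8 and 26.6 CPM. Neuronal libraries held lymphocyte markers at 27.6 to 42.1 CPM and monocyte markers at 11.3 to 27.5 CPM. In the other fractions these sums were at most 7.21 and 14.3 CPM. The part of immune cells in the member counts of neurons was not tested.

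Which fraction the transcripts came from was the first question. All 10 members were highest in the microglial fraction. Microglia here means this CD11b-selected fraction, which also held markers of other myeloid cells, described below. For every one of them the lowest of the 6 microglial libraries was above the highest of the 12 astroglial and neuronal libraries. Of all 13552 genes with 5 counts in 2 or more of the 18 libraries, 6.36% met the same criterion. Microglia held from 82.5% (Ccl9) to 100% (Il1a and Ccl2) of all counts of the gene. In bulk RNA of this kind, fewer cells of a type and less RNA per cell cannot be told apart.

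**Figure D1:**
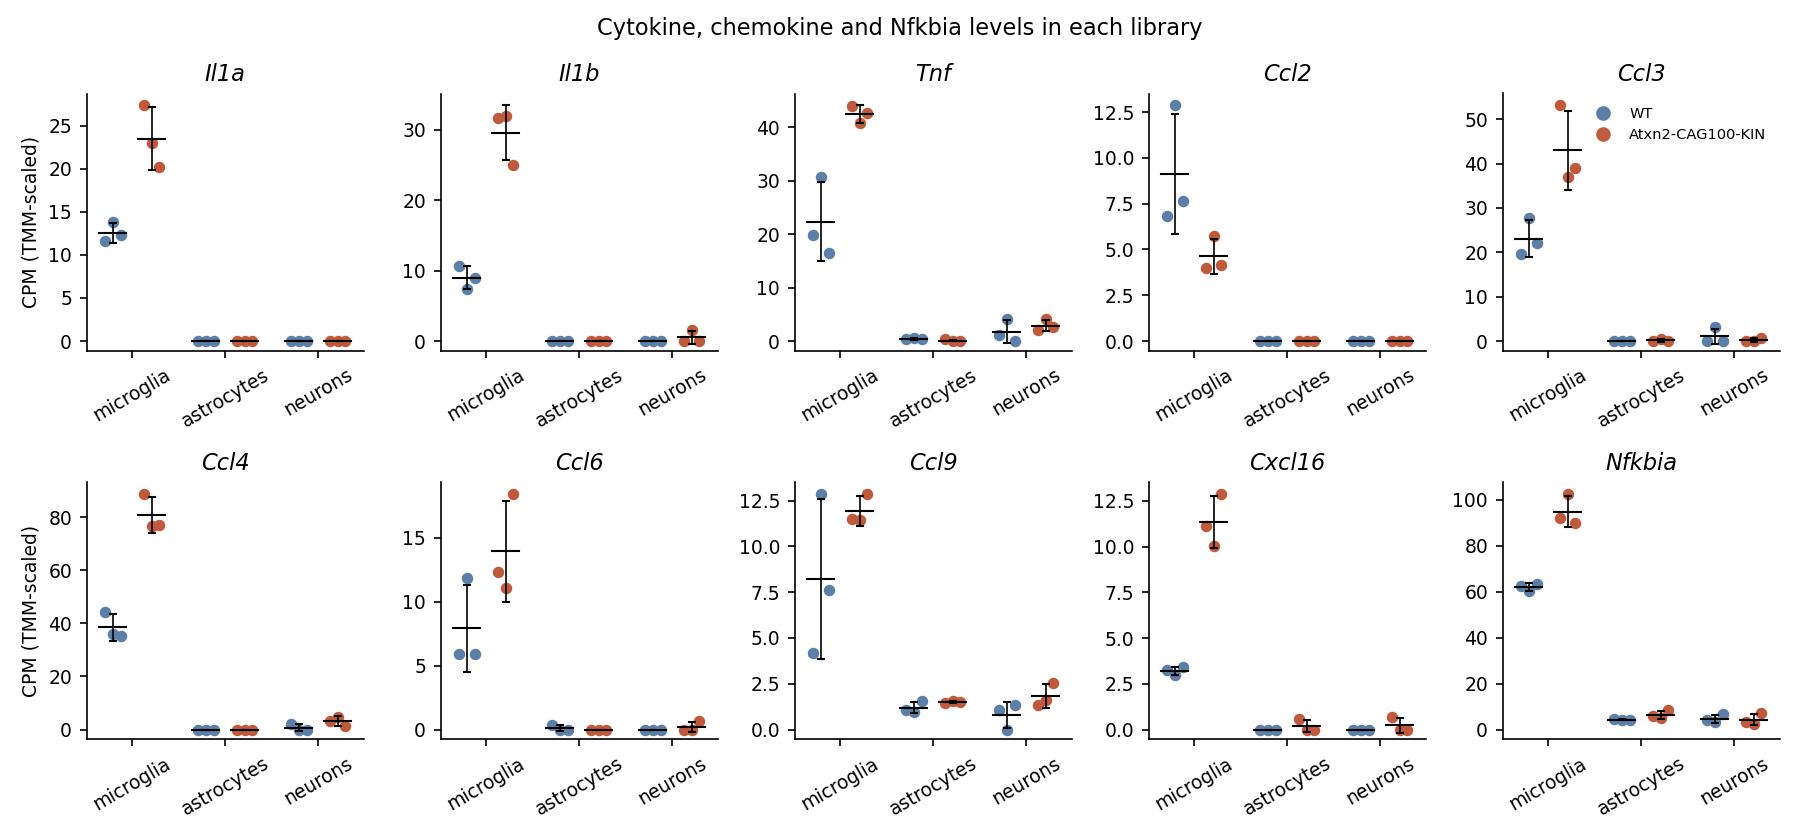
Each panel shows 1 gene, with CPM on the vertical axis and the 3 fractions on the horizontal axis. Points are libraries (blue WT, red KIN), lines are means and bars are SD of 3 libraries. Microglia stand above the other fractions in every panel, and KIN microglia lie above WT microglia without overlap for 7 genes, Ccl2 lying below.

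The IL-1 genes were nearly confined to the microglial libraries in the counts. Il1a had 96 counts in the 3 WT and 191 in the 3 KIN microglial libraries and 0 counts in all 12 others. Il1b had 72 and 241 counts in microglia and 2 counts elsewhere, both in KIN neurons replicate 2. In WT, with the 3 astroglial libraries at 0, Il1a was at least 12.7-fold and Il1b at least 9.09-fold higher in microglia than in astrocytes, when the astroglial group is set to the limit of 3 counts in each library. Tnf was detected in other fractions at a low level, with 4 counts in WT and 1 in KIN astrocytes and 5 and 12 counts in WT and the more deeply sequenced KIN neurons, where it measured 1.73 ± 2.12 and 2.87 ± 1.06 CPM. Of the 5 counts in WT neurons 4 were in replicate 2. Its level in WT microglia was 22.4 ± 7.40 CPM (SD, n = 3) against 0.438 ± 0.184 CPM in WT astrocytes, a log2 fold change of 5.58 (SE 0.48, adjusted p = 6.47e-13, edgeR quasi-likelihood test).

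The chemokines had the same distribution. Ccl2, which recruits Ccr2-bearing monocytes, had 67 counts in WT and 38 in KIN microglia and 0 elsewhere. Ccl3 and Ccl4, the inflammatory chemokines MIP-1 alpha and MIP-1 beta, had 174 and 305 counts in WT and 349 and 660 counts in KIN microglia, and 5 and 15 counts in the 12 other libraries, 13 of the 15 Ccl4 counts being in KIN neurons (3.15 ± 1.79 CPM) and 3 of the 5 Ccl3 counts in WT neurons replicate 2. Ccl6 had 2 counts and Cxcl16, a chemokine that is made both as a membrane-bound and as a soluble protein and binds Cxcr6, had 3 counts outside microglia. Against WT astrocytes the lower bounds were 9.20-fold for Ccl2, 23.3-fold for Ccl3, 38.9-fold for Ccl4 and 3.24-fold for Cxcl16. For Ccl6 the ratio rested on 1 astroglial count and was 68.2 (95% counting interval 11.8 to 2740). WT neurons, with fewer counts per library, gave lower bounds of 3.66-fold for Il1a, 2.62-fold for Il1b, 2.65-fold for Ccl2 and 2.31-fold for Ccl6. For Cxcl16 the limit of 3 counts in each library, averaged over WT neurons, lay above its mean level in WT microglia and left no bound.

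Nfkbia, Ccl9 and Tnf had the most counts outside microglia. Nfkbia was detected in all 12 of these libraries, Ccl9 in 11 and Tnf in 9. Ccl9 transcripts hold stretches close in sequence to transcripts of several other genes, among them Baz1b (96.3% identity over 163 bases), Git2 and Sphk1. Reads from such stretches may have been counted for the wrong gene. Their part in the Ccl9 counts of any fraction was not tested. Nfkbia measured 4.58, 4.22 and 4.07 CPM in WT astrocytes and 4.32, 3.07 and 6.65 CPM in WT neurons, against 62.3, 60.4 and 63.6 CPM in WT microglia. The log2 fold change of WT microglia was 3.91 (SE 0.33) over astrocytes and 3.60 (SE 0.45) over neurons. Ccl9 measured 0.974 to 1.56 CPM in WT astrocytes and 4.16, 12.9 and 7.63 CPM in WT microglia, a log2 fold change of 2.72 (SE 0.48, adjusted p = 1.27e-05, edgeR). A log2 fold change of at least 1 with an adjusted p of at most 0.05 is called a change here. By this rule 10 of 10 members were higher in WT microglia than in WT astrocytes, where 13.3% of 12157 genes were called higher, and 10 of 10 were higher than in WT neurons, where 12.4% of 9617 genes were. The same 10 were called in both comparisons of KIN libraries. The call of Cxcl16 against neurons (adjusted p = 0.0204, edgeR) rested on 25 counts in WT microglia and 0 in WT neurons, and it was lost without WT neurons replicate 1 or 2 (adjusted p = 0.0649 and 0.0714) and under DESeq2 (adjusted p = 0.0690). That of Ccl9 against neurons was lost without WT microglia replicate 2 (adjusted p = 0.0510, edgeR). Between WT astrocytes and WT neurons Nfkbia alone had enough counts for a test, with a log2 fold change of -0.22 (SE 0.59, adjusted p = 0.844, edgeR), where 19.3% of 10855 genes were called.

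The main question was whether these transcripts differed between the genotypes in the microglial fraction. In KIN microglia Il1b was 3.22-fold, Cxcl16 3.49-fold and Ccl4 2.10-fold higher than in WT, and these 3 of 10 members were called higher. Among all 10831 genes tested 0.739% were called higher and 0.785% lower. Fitted log2 fold changes were above 0 for 9 of 10 members, as for 49.8% of all genes, with a median of 0.91 among the members and 0.00 among all genes. The 3 KIN libraries lay above the 3 WT libraries for 7 members and below them for 1, while 8.49% and 7.53% of all genes did so. The exception in direction was Ccl2.

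**Figure D2:**
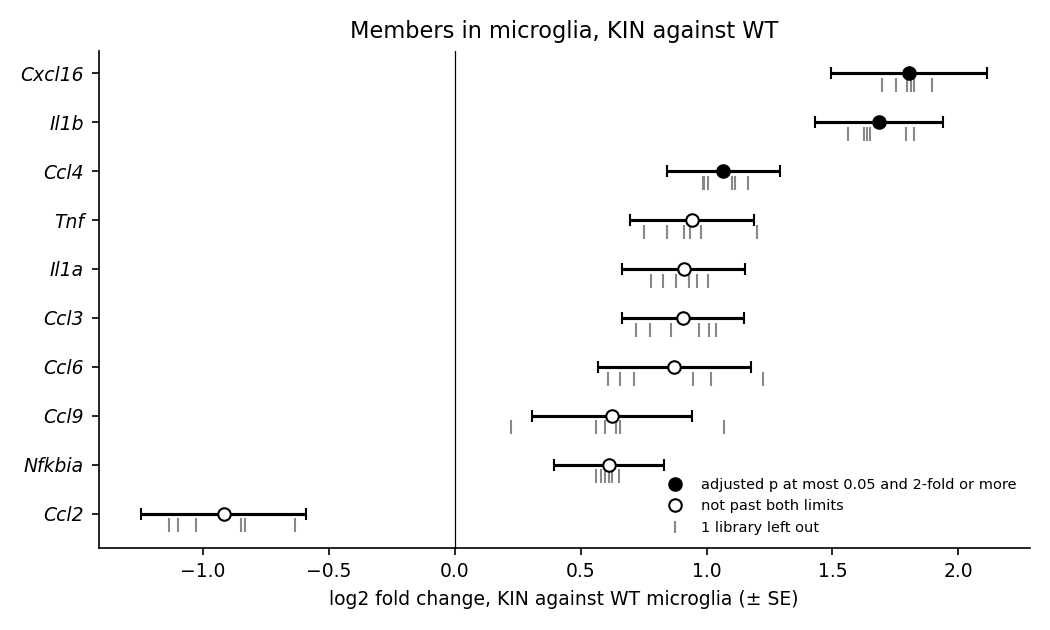
Fitted log2 fold changes of KIN against WT microglia (horizontal axis) for each gene, with SE bars from the fit to 6 libraries. Filled points passed both limits of the call, and grey ticks are the 6 fits that each leave out 1 library. Il1b and Cxcl16 keep all ticks above 1.5, and Ccl2 keeps all below 0.

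Il1b, the cytokine that is made as an inactive precursor and cleaved by caspase-1, measured 10.7, 7.42 and 8.90 CPM in the WT libraries and 31.7, 31.9 and 25.0 CPM in the KIN libraries. The highest WT library was well below the lowest KIN library. The log2 fold change was 1.69 (SE 0.25, adjusted p = 0.000394, edgeR quasi-likelihood test), on 72 WT and 241 KIN counts. It was called in each of the 6 fits without 1 library, where it ranged from 1.56 to 1.82. Il1a, the sister cytokine that is active without cleavage, measured 11.6, 13.9 and 12.3 CPM in WT and 27.3, 22.9 and 20.2 CPM in KIN. Its groups did not overlap either, and the log2 fold change of 0.91 (SE 0.25) missed both limits (adjusted p = 0.0576, edgeR). Without WT replicate 2 it was 0.96 (SE 0.24) and passed the adjusted p (0.0142) but not the fold limit.

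Tnf measured 19.9, 30.7 and 16.5 CPM in WT microglia and 44.0, 40.8 and 42.8 CPM in KIN microglia. The KIN libraries lay close together, with an SD of 3.77% of their mean, and the WT libraries spread more widely, with an SD of 33.1% of the mean and replicate 2 highest. The log2 fold change of 0.94 (SE 0.25) passed the adjusted p (0.0487, edgeR) and missed the fold limit, while 0.84% of all genes passed the adjusted p with a higher value in KIN. Without WT replicate 2 it was 1.20 (adjusted p = 0.000623).

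Among the CC chemokines, Ccl4 measured 44.2, 36.1 and 35.2 CPM in WT and 88.8, 76.6 and 77.2 CPM in KIN. All KIN libraries were higher, with a log2 fold change of 1.07 (SE 0.23, adjusted p = 0.0134, edgeR). This value sits near the fold limit, and the call was lost without WT replicate 3 or without KIN replicate 1, 2 or 3 (adjusted p = 0.0717 to 0.119, log2 fold change 0.99 to 1.11). Its neighbour Ccl3 measured 19.6, 27.7 and 22.0 CPM in WT and 53.1, 36.9 and 39.0 CPM in KIN. Ccl3 did not overlap between the groups and had a log2 fold change of 0.91 (SE 0.24, adjusted p = 0.0547, edgeR), and without WT replicate 2 it was called at 1.04 (adjusted p = 0.00407).

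Ccl6 and Ccl9, which share the receptor Ccr1 and lie side by side, had overlapping groups. Ccl6 measured 5.94, 11.9 and 5.93 CPM in WT and 12.3, 11.1 and 18.4 CPM in KIN. Ccl9 measured 4.16, 12.9 and 7.63 CPM in WT and 11.5, 11.5 and 12.9 CPM in KIN. In both genes the overlap came from WT replicate 2 alone. Their log2 fold changes of 0.87 (SE 0.30, adjusted p = 0.174) and 0.63 (SE 0.32, adjusted p = 0.452, edgeR) were not called with all libraries. Without WT replicate 2 both were called, at 1.22 (adjusted p = 0.0136) and 1.07 (adjusted p = 0.0361).

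Ccl2 moved the other way. It measured 6.83, 12.9 and 7.63 CPM in WT and 3.96, 5.73 and 4.17 CPM in KIN, on 23, 26 and 18 against 10, 16 and 12 counts. Every KIN library was below every WT library, and the log2 fold change of -0.92 (SE 0.33) was not called (adjusted p = 0.191, edgeR). Without WT replicate 2 it was -0.63 (adjusted p = 0.343). Ccl7, a chemokine that lies beside Ccl2 and shares its receptor Ccr2, had a log2 fold change of -0.02 (adjusted p = 0.998).

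Cxcl16 measured 3.26, 2.97 and 3.39 CPM in WT and 11.1, 10.0 and 12.9 CPM in KIN, on 11, 6 and 8 against 28, 28 and 37 counts. It had the largest fold change of the 10, a log2 value of 1.80 (SE 0.31, adjusted p = 0.00233, edgeR), and was called in all 6 fits without 1 library. The call was lost with the most abundant transcript (adjusted p = 0.0571), and DESeq2 gave no adjusted p. Cxcl16 shares 1757 bases of identical transcript sequence with Med11 and 552 bases with Zmynd15, which run through it on the opposite strand, so that reads of these genes cannot be told apart where they overlap. In the same libraries Med11 measured 2.37, 2.47 and 3.39 CPM in WT and 4.76, 5.37 and 5.57 CPM in KIN (log2 fold change 0.94, SE 0.38, adjusted p = 0.278). Zmynd15 measured 2.97, 4.95 and 2.97 CPM in WT and 7.53, 5.73 and 6.26 CPM in KIN (0.88, SE 0.35, adjusted p = 0.273). Their part in the Cxcl16 value was not tested.

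Nfkbia measured 62.3, 60.4 and 63.6 CPM in WT microglia and 92.4, 103 and 89.8 CPM in KIN microglia. It was the tightest member in WT, with an SD of 2.59% of the mean, and the 2 groups were clearly apart. Its log2 fold change of 0.61 (SE 0.22), a 1.53-fold difference, was not called (adjusted p = 0.185, edgeR). Without WT replicate 2 it was 0.58 (adjusted p = 0.0595).

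WT replicate 2 was the highest WT library for 6 of the 10 members (Il1a, Tnf, Ccl2, Ccl3, Ccl6 and Ccl9) and the lowest for 3 (Il1b, Cxcl16 and Nfkbia). Without it 7 members were called, Il1b, Cxcl16, Ccl4, Tnf, Ccl3, Ccl6 and Ccl9, and 452 of all genes in place of 165. The other 5 fits without 1 library called 2 or 3 members, always with Il1b and Cxcl16 among them. Summed over the 10 members, the level was 188, 217 and 183 CPM in WT and 376, 350 and 342 CPM in KIN microglia.

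Single transcripts make up the gene values, and 3 members have only 1 transcript, so their directions are a description and no separate evidence. Of the 20 transcripts, 18 had a higher mean in KIN than in WT microglia, and the exceptions were the 2 transcripts of Ccl2. In 13 transcripts the KIN libraries were all above the WT libraries, in 1 (the protein-coding Ccl2 transcript) all below. These 14 were among the 18 member transcripts with 5 counts in 2 or more microglial libraries, and of all 14126 transcripts past that filter 9.32% lay above and 5.87% below without overlap. The protein-coding transcript of Il1b measured 7.44 ± 1.01 CPM in WT and 24.1 ± 3.17 CPM in KIN (mean ± SD, n = 3), and its retained-intron transcript measured 1.13 ± 0.603 CPM in WT and 2.69 ± 0.226 CPM in KIN. The 3 transcripts of Cxcl16 split its counts into 41.5%, 27.1% and 31.4%, the last 2 being annotated as a nonsense-mediated decay and a retained-intron form, and in each the KIN libraries were above the WT libraries. In Tnf both transcripts are protein-coding and took 73.1% and 26.9% of the counts. For Ccl6 a retained-intron transcript held 41.0% of the counts. The authors state that their libraries capture mRNA at its 3′ end and so cover few of the isoforms. These percentages are therefore shares of the reads and not of full-length transcripts. Transcripts of 1 gene share sequence, so the division of reads among them depends on how the alignment placed shared reads, and with the most abundant transcript of each gene Cxcl16, no longer called, had a log2 fold change of 1.81.

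**Figure D3:**
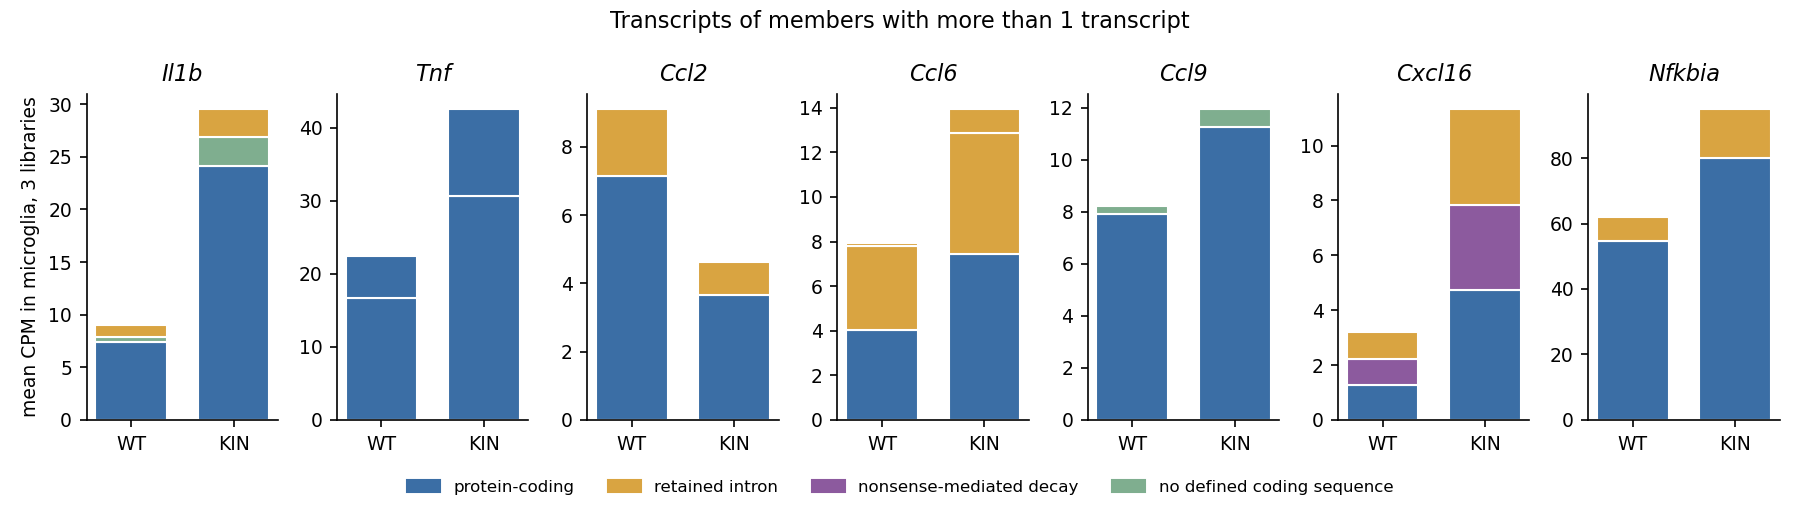
Mean CPM over 3 microglial libraries of WT and KIN, stacked by transcript for the 7 genes with more than 1 transcript and coloured by annotated type, with no error bars drawn. The protein-coding transcript grows with the gene in Il1b, Cxcl16 and Nfkbia, and shrinks in Ccl2.

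Astrocytes and neurons gave little to test. In astrocytes 2 members passed the filter of 5 counts in 2 libraries. Nfkbia measured 4.58, 4.22 and 4.07 CPM in WT and 5.76, 5.12 and 8.42 CPM in KIN, on 13, 13 and 13 against 20, 10 and 22 counts. The KIN libraries lay above the WT libraries, as in 13.8% of 11751 genes, and the log2 fold change of 0.57 (SE 0.33, adjusted p = 0.283, edgeR) was not called. Ccl9 had a log2 fold change of 0.28 (SE 0.69, adjusted p = 0.855) on 11 and 12 counts. None of the 2 was called, where 8.85% of genes were called in either direction. The other 8 members had 4 counts or fewer per group in astrocytes, so that no change in them could be tested.

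In neurons Ccl4 had 2, 0 and 0 counts in WT and 5, 6 and 2 counts in KIN, a ratio of 4.01 (95% counting interval 0.908 to 36.6) with overlapping levels and a log2 fold change of 1.72 (SE 1.25, adjusted p = 0.970, edgeR). Nfkbia measured 4.32, 3.07 and 6.65 CPM in WT and 3.32, 2.43 and 7.05 CPM in KIN (log2 fold change -0.27, SE 0.65, adjusted p = 0.984). Neither was called, and among 6765 genes 0.0148% were. At an unadjusted p of at most 0.05, 176 genes were higher and 165 lower in KIN neurons by edgeR, and 56 and 78 by DESeq2. With both limits of the call DESeq2 called 0. Whether the KIN difference itself was unlike in microglia and astrocytes could be tested with an interaction term for members with counts in both. The difference of log2 fold changes was 2.47 (SE 1.26, adjusted p = 0.393) for Tnf, 0.33 (SE 0.72, adjusted p = 0.896) for Ccl9 and 0.03 (SE 0.49, adjusted p = 0.992, edgeR) for Nfkbia, while 1.17% of 13277 genes were called in this term. For Tnf the astroglial side rests on 4 and 1 counts, and for the other 7 members an astroglial group at 0 leaves the term without a usable estimate. The Il1b, Cxcl16 and Ccl4 differences are therefore not shown to be particular to microglia.

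Genes around the members were read from lists of receptors, processing enzymes, regulators and other ligands. In microglia 3 receptors were measurable of a list of 11, and none was called. The TNF receptor Tnfrsf1a measured 20.1 ± 1.58 CPM in WT and 18.4 ± 2.67 CPM in KIN (SD, n = 3). Ccr2 had a log2 fold change of -0.06 (SE 0.43, adjusted p = 0.990, edgeR). Of 10 measured genes for IL-1 processing and signalling, with the inflammasome genes Nlrp3 and Pycard and the adaptor Myd88 among them, 0 were called (0 of 10 passed the adjusted p of edgeR) and 9 of 10 were above 0, with a median log2 fold change of 0.24. The 2 lowest p-values there were those of the receptor kinases Irak4 (1.28, SE 0.56, adjusted p = 0.331) and Irak1 (0.45, SE 0.26, adjusted p = 0.539).

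Of 16 NF-kB subunits, kinases and inhibitors, 0 were called and 12 were above 0, with a median of 0.25. Tnfaip3, which encodes the A20 protein that ends NF-kB signalling and, like Nfkbia, is an NF-kB target, measured 20.3 ± 0.704 CPM in WT and 33.4 ± 1.63 CPM in KIN (log2 fold change 0.72, SE 0.23, adjusted p = 0.115, edgeR). Relb, a subunit of the noncanonical pathway, measured 7.28 ± 1.09 and 11.9 ± 1.77 CPM (0.74, SE 0.27, adjusted p = 0.216). The subunits Rela (0.07) and Nfkb1 (0.15) had small log2 fold changes. Of 10 genes that bind AU-rich elements or degrade cytokine mRNAs, with Zfp36 among them, 0 were called, with a median of 0.05 and Zfp36 itself at 0.07. Lowest in p among these were Elavl1 (0.65, SE 0.31, adjusted p = 0.400) and Tia1 (-0.52, SE 0.27, adjusted p = 0.456, edgeR).

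Among 9 other cytokines and growth factors measured in microglia 2 were called higher. Csf1, the growth factor that sustains microglia through Csf1r, measured 9.56 ± 2.06 CPM in WT and 39.5 ± 5.15 CPM in KIN (log2 fold change 2.02, SE 0.25, adjusted p = 3.60e-05, edgeR) and was called in all 15 alternative fits. Mif measured 7.05 ± 1.24 and 15.2 ± 2.61 CPM (1.11, adjusted p = 0.0357), and its call was lost in 7 of 15 alternative fits, among them those without WT replicate 1 or 3 and without each KIN library. Of 10 other chemokines 1 was called. Cxcl10, an interferon-induced ligand of Cxcr3, measured 1.44 ± 0.568 CPM in WT and 5.79 ± 1.19 CPM in KIN (1.99, SE 0.44, adjusted p = 0.0172), on 11 and 47 counts, and its call was lost in 7 of 14 alternative fits, again without WT replicate 1 or 3 and without each KIN library.

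**Figure D4:**
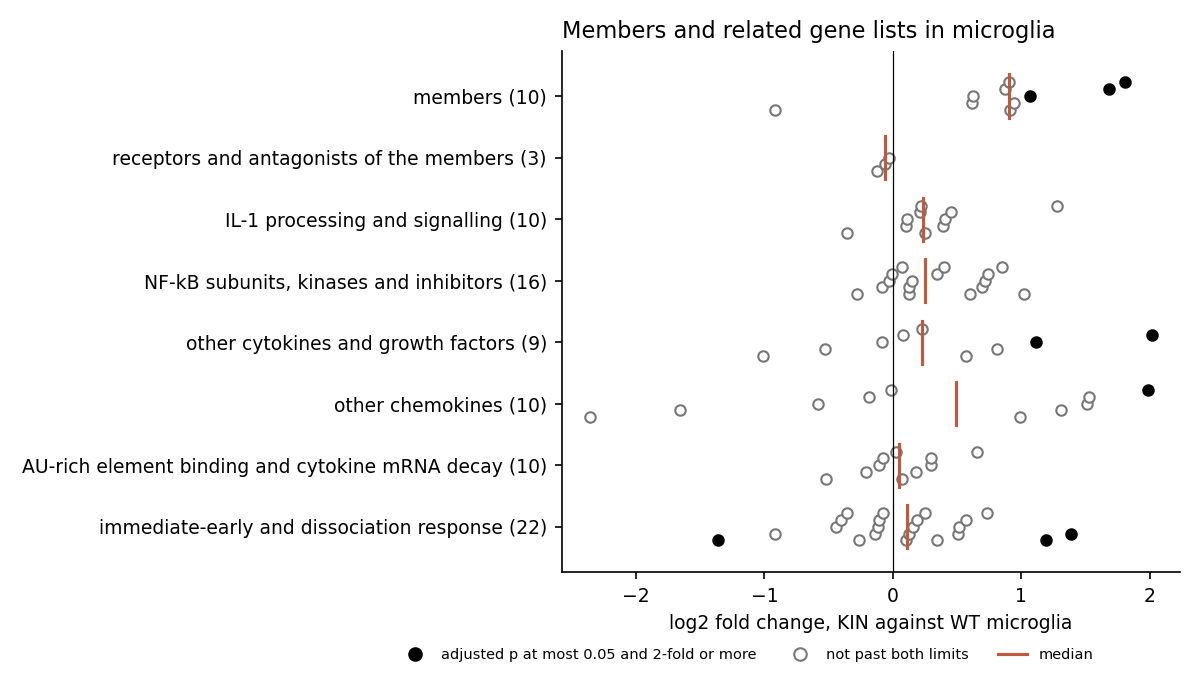
Log2 fold changes of KIN against WT microglia (horizontal axis) for every measured gene of each list (number in brackets), with filled points past both limits of the call and a red line at the list median. The median of the members is 0.91, and that of the other 7 lists lies between -0.06 and 0.49.

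Among all genes in astrocytes, 2.43% were called higher and 6.42% lower in KIN. Of the surrounding lists, the receptor Ccr2 was called lower in KIN (2.44 ± 0.648 to 0.383 ± 0.663 CPM, log2 fold change -2.57, adjusted p = 0.0301, edgeR). The Ccr2 call was lost without WT astrocytes replicate 1 or 3 or without KIN replicate 1 or 2. The chemokines Cxcl14 (-1.10, adjusted p = 0.00648) and Cx3cl1 (-1.09, adjusted p = 0.0488) were called lower in KIN astrocytes, and Zc3h12a, a ribonuclease that degrades cytokine mRNAs, was called higher (1.27, adjusted p = 0.0149, edgeR). The Cxcl14 call was lost without WT replicate 2, that of Cx3cl1 without WT replicate 1 or 3 or KIN replicate 1 or 3, and that of Zc3h12a without WT or KIN replicate 3. All 4 calls were also lost under DESeq2, those of Cxcl14 and Cx3cl1 also with the most abundant transcript, and that of Cx3cl1 also without the count filter and with all 18 libraries in 1 fit. In the same libraries the 10 astrocyte markers, all detected, summed to 687 to 990.2 CPM in WT and 464 to 479 CPM in KIN. The mean was lower in KIN for 8 of them and higher for Gfap (6.89 to 15.3 CPM in WT, 16.1 to 18.7 CPM in KIN) and S100b (43.0 to 71.1 and 93.7 to 115 CPM), both without overlap. The 8 oligodendrocyte-lineage markers, all detected, summed to 399.7 to 612 CPM in WT and 719 to 722 CPM in KIN, where 3 of them (Mog, Mag and Cnp) lay higher without overlap. Both sums separated the genotypes. So did 3 scarcer marker lists, all lower in KIN astrocytes. Microglial markers (8 of 11 detected in WT, 9 in KIN) summed to 16.6 to 22.2 CPM in WT and 10.4 to 14.5 CPM in KIN, lymphocyte markers (5 and 4 of 7 detected) to 2.92 to 4.93 CPM and 1.91 to 2.88 CPM, and monocyte markers (4 and 2 of 5 detected), a list that holds Ccr2 itself, to 3.76 to 5.99 CPM and 1.02 to 3.44 CPM. Neuronal markers, all 10 detected, had overlapping sums of 41.5 to 125 CPM in WT and 33.8 to 56.2 CPM in KIN, with a lower mean in KIN for 9 of 10 and no overlap for 5 of these. The part of these cells in the 4 calls was not tested.

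Genes that respond to dissociation were measured beside the members. All 22 genes of an immediate-early and heat-shock list were called higher in WT microglia than in both other fractions, as the members were. Between KIN and WT microglia, the summed level of this list overlapped, at 1116 to 1221 CPM in WT and 1123 to 1256 CPM in KIN. In astrocytes it was 125 to 157 CPM in WT and 166 to 209 CPM in KIN, without overlap. Its part in the member differences was not tested. Of its 22 genes, Gadd45b (log2 fold change 1.39, adjusted p = 0.0111) and Egr2 (1.19, adjusted p = 0.0378, edgeR) were called higher, and the heat-shock gene Hspa1a was called lower (-1.36, adjusted p = 0.0134). These 3 calls were lost in 4 (Gadd45b) or 5 (Egr2 and Hspa1a) of the 6 fits without 1 library. Egr2 was lost without WT replicate 2 or 3 or any KIN library, Hspa1a without WT replicate 1 or 3 or any KIN library, and Gadd45b without WT replicate 1 or 3 or KIN replicate 1 or 2. Gadd45b and Egr2 were also lost under DESeq2 and with the most abundant transcript, and Egr2 with a mean of at least 10 counts and with all 18 libraries in 1 fit. In KIN astrocytes Egr1 was higher (12.0 ± 1.41 to 32.1 ± 4.25 CPM, 1.39, adjusted p = 2.48e-05).

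CD11b beads also bind other myeloid cells, which make several of these mediators. Of 6 neutrophil genes, 6 had counts in WT and 5 in KIN microglia, and Ly6g was at 0 in KIN. Their summed level was 86.4, 91.6 and 81.4 CPM in WT and 54.3, 125 and 51.1 CPM in KIN. In the same 3 KIN libraries Il1b, a gene that neutrophils also make, measured 31.7, 31.9 and 25.0 CPM. All 7 markers of border macrophages had counts in both groups, with sums of 11.9 to 19.1 CPM in WT and 18.6 to 25.0 CPM in KIN. The mean was higher in KIN for 4 of them, among them Mrc1 (1.78 to 2.97 CPM in WT, 4.76 to 7.16 CPM in KIN), and lower for 3 (Lyve1, Cbr2 and Ms4a7). All 5 monocyte markers had counts in both groups, with sums of 4.95 to 8.01 CPM in WT and 6.26 to 14.3 CPM in KIN. The mean was higher in KIN for 5 of 5, without overlap for 1 (Ly6c2). Neuronal markers, all 10 detected, summed to 17.8 to 60.6 CPM in WT and 9.05 to 10.7 CPM in KIN microglia. The sums of 3 further marker lists also lay lower in KIN than in WT microglia without overlap. Astrocyte markers (10 of 10 detected in WT, 9 in KIN, with Gjb6 at 0) summed to 25.7 to 35.6 CPM in WT and 17.0 to 19.7 CPM in KIN. Oligodendrocyte-lineage markers (8 of 8 detected in both) summed to 31.4 to 34.1 CPM and 20.2 to 21.8 CPM. Mural-cell markers (5 of 5 detected in WT, 4 in KIN, with Kcnj8 at 0) summed to 4.45 to 4.95 CPM and 1.43 to 2.78 CPM. The part of these cells in the member differences was not tested.

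**Figure D5:**
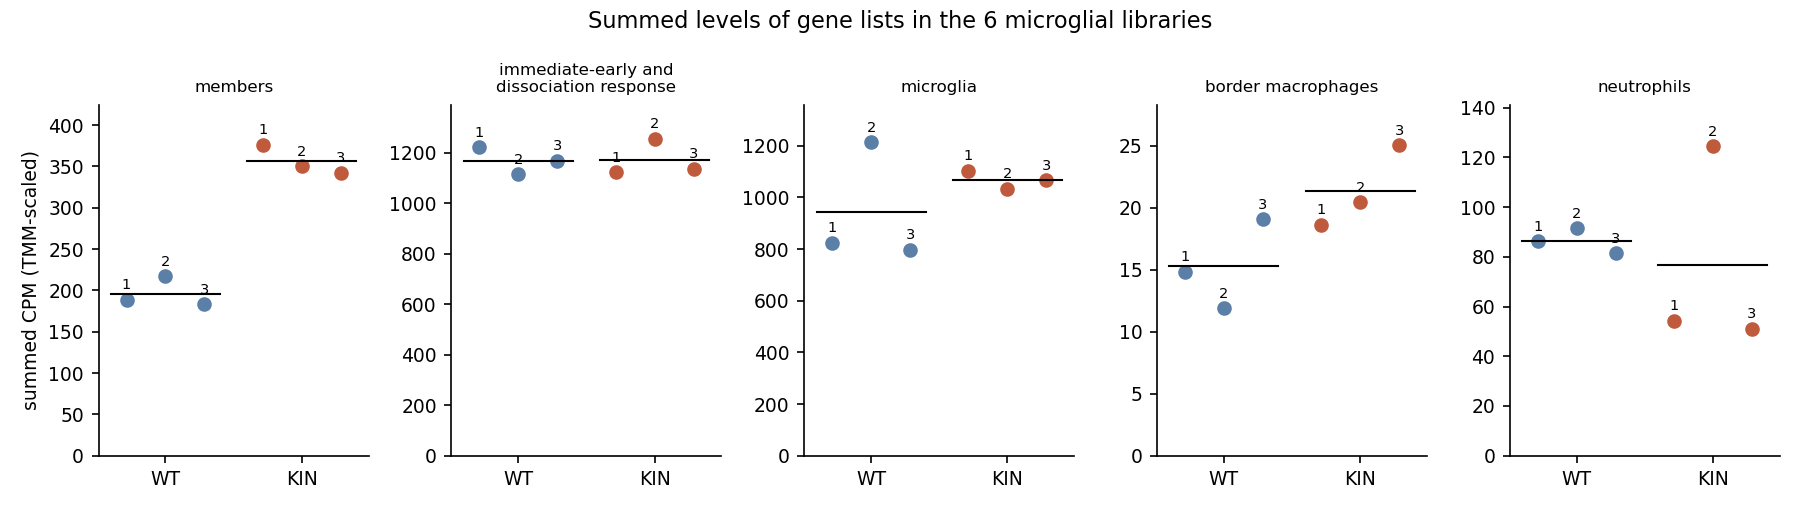
Summed CPM (vertical axis, from 0) of 5 gene lists in the 6 microglial libraries, with replicate numbers above the points and lines at the group means. The members separate WT (183 to 217 CPM) from KIN (342 to 376 CPM), and the sums of the other 4 lists drawn here overlap between genotypes. Within the microglial list single markers moved in both directions.

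Genes with a pattern most like a member were sought among 13552 genes, by the root mean square difference of centred log2 CPM over the 18 libraries, for the 8 members with a mean of at least 20 counts in microglia, with the other members left out. The members were far higher in microglia than in the other fractions, and this difference weighs heavily in the measure. Il1a was nearest to the nucleotide receptor P2ry6 (difference 0.22), Ccl6 and Nfkbia to Slamf9 (0.27 and 0.36), Ccl9 to Rab20 (0.35) and Ccl3 to the Fc receptor Fcgr3 (0.46). Il1b, which lay at 0.43 from Il1a, was nearest among non-members to Mpeg1, a pore-forming protein of macrophages (0.44), and to the lipopolysaccharide co-receptor Cd14 (0.49). Slamf9 followed (0.52). These genes were chosen for their likeness over the same libraries, so their levels are a description. Mpeg1 measured 16.0 ± 6.53 CPM in WT and 43.9 ± 3.34 CPM in KIN microglia, Cd14 18.4 ± 9.38 and 42.9 ± 10.2 CPM, and Slamf9 8.65 ± 1.94 and 13.8 ± 0.634 CPM (SD, n = 3). Ccl4 (Laptm5, 0.68) and Tnf (Ccdc88b, 0.57) had no neighbour as close.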

How the data were processed

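Total RNA of 18 libraries (panRNA-Seq, with unique molecular identifiers) was sequenced. The authors trimmed reads with cutadapt 4.6, aligned them with Bowtie2 2.4.4 to mm39 and counted them per Ensembl transcript with HTSeq 2.0.2, without strand. The deposited values used are raw counts per transcript. The other 36 per-sample columns, and the columns of the authors' DESeq2 fold changes and p-values, were not used. Counts were summed by name over 116873 transcripts, of which 137 had no name and were left apart.

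Each comparison kept genes that reached 5 counts in 2 or more of its libraries and used edgeR 4.0.16 (TMM, quasi-likelihood test, R 4.3.3), with p-values adjusted by Benjamini-Hochberg over all genes tested. Positions come from GENCODE vM39. Python 3.11.15 made the descriptions. On simulated counts with 200 genes changed by a log2 value of 2, the comparison of KIN and WT microglia recovered 134 of 183 tested changed genes with 4 false calls.

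All members are named. For KIN against WT microglia, up to 4 called genes per direction were named from each list, or the 2 of lowest p. For KIN against WT astrocytes the called genes were named. Tmem119, C1qa, P2ry12, P2ry13, Med11, Zmynd15, Ccl7, Rela, Nfkb1, Zfp36, Mrc1, Lyve1, Cbr2, Ms4a7, Gfap, S100b, Mog, Mag, Cnp, Gjb6, Kcnj8, Ly6c2 and Ly6g were added after their values were seen. For members with a mean of 20 counts or more in microglia, the 3 most similar genes were sought. The members and lists were chosen with earlier results of these data known, and 2 genes of the lists are not reported here. Alternatives were DESeq2 1.42.0, its size factors, TMM without mitochondrial or the 10 most abundant transcripts, other count filters, the transcript of highest mean, the adjusted p alone, all 18 libraries in 1 fit, the replicate number as a block, the fraction comparisons in KIN, and each library left out. Mice were same-sex littermate pairs, the labels do not say which replicate numbers form a pair, and p-values measure the spread between these 3 libraries per group.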

Additional observations from a re-analysis of the deposited data

Results flagged for a closer look

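By the interaction test of edgeR, 2 genes of the surrounding lists with counts in all groups differed in their KIN effect between microglia and astrocytes, given as the log2 fold change in microglia minus that in astrocytes. The difference was 1.98 for Csf1 (SE 0.42, adjusted p = 0.00461), which rose in microglia, and it was called in all fits without 1 library and lost with the transcript of highest mean (adjusted p = 0.341). For the immediate-early gene Egr1 it was -1.52 (SE 0.35, adjusted p = 0.0108), and the call was lost without WT astrocytes replicate 1 or 3 or KIN microglia replicate 3. None of the 3 members with a usable estimate in this test was called.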

How the results depend on the processing

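Among fits under another setting, members kept their direction in all but 5 of 391 values, and the number of members called in KIN microglia, 3, became 2 under DESeq2, where Cxcl16 had no adjusted p, and 2 with the transcript of highest mean, and 4 by the adjusted p alone, with Tnf added. Leaving out 1 library gave 2 to 7 called members. In KIN libraries 1 member, Ccl4, was called between astrocytes and neurons, against 0 in WT. Values near 0 changed sign. Nfkbia in KIN against WT neurons ranged from -0.84 to 0.0919 with 1 library left out. In the interaction, Ccl9 ranged from -0.0638 to 0.78 and Nfkbia from -0.0911 to 0.26 with 1 library left out, and Nfkbia was -0.00638 without the count filter and -0.00693 with the transcript of highest mean. Nfkbia in WT astrocytes against neurons was 0.0228 without the count filter, 0.0831 with the transcript of highest mean, 0.48 in KIN libraries and -0.42 to 0.16 with 1 library left out. The cause was not tested. Over all genes, KIN microglia gave 165 calls, 80 higher and 85 lower, against 41 and 7 under DESeq2, 105 and 171 without the filter, 61 and 34 with a mean of at least 10 counts, 40 and 37 by the transcript of highest mean, and 35 to 452 calls with 1 library left out. KIN astrocytes gave 1040 calls, against 401 under DESeq2 and 572 to 1528 with 1 library left out, and KIN neurons 1, against 0 under DESeq2 or the replicate block, 7 with DESeq2 size factors, 28 without the filter, 21 with all 18 libraries in 1 fit and 0 to 22 with 1 library left out. The interaction gave 155 calls, against 82 under DESeq2, 101 by the transcript of highest mean, 264 with the replicate block and 72 to 302 with 1 library left out. WT microglia gave 1853 calls against neurons, with 1105 under DESeq2, 1225 with a mean of at least 10 counts and 2996 in KIN libraries, and 3283 against astrocytes, with 2128 at that mean. WT astrocytes against neurons gave 2099, with 1324 under DESeq2 and 3361 in KIN libraries. Deviations of same-numbered KIN and WT libraries correlated at -0.108 to 0.0809 in microglia and -0.0148 to 0.0726 in astrocytes, where 2 of 6 libraries each correlated best with their own number, and at 0.0198 to 0.0268 in neurons, where 6 of 6 did, a hint from the data and not from the design. Between WT astrocytes and WT microglia they correlated at 0.0649 to 0.239, with 4 of 6. In no comparison were all 3 above 0.1, so the numbers were not treated as pairs. With the replicate block 3 members were still called in microglia, and Cxcl16 was lost in WT microglia against neurons (adjusted p = 0.0522, edgeR), as under DESeq2 (adjusted p = 0.0690). Low counts limit the tests in astrocytes and neurons, where most members had under 5 counts per group. Neuronal libraries were also shallower. Astroglial libraries (2118317 to 2829969 counts) were about as deep as microglial libraries (2334633 to 3296398 counts).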
